A study of Mus musculus with 4 samples.

Results

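The cytochrome P450 family was measured in the inflamed colon of wild-type (WT) mice and of mice without STAP-2, an adaptor protein of cytokine receptor signalling. Members were taken as the genes whose symbol is Cyp followed by a digit, except Cyp51, and were named through the RefSeq accession that each array probe targets. This gave 97 genes of the 20832 named on the array, each represented by its probe with the highest mean signal. The RefSeq table lists 133 such symbols, and the other 36, of which 5 are protein coding, had no probe named here and were not analysed. Of the 97 members, 4 are not classed as protein coding.

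All mice were C57BL/6J, 14 weeks old and given 1.75% dextran sulfate sodium (DSS) in drinking water, a sugar polymer toxic to the lining of the colon that brings on acute colitis. One label field gives 3 days of DSS and another 7 days. RNA of the whole colon was pooled from 3 mice per sample, and 1 Agilent array was run per pool, giving 2 WT and 2 STAP-2-/- arrays, numbered 1 and 2 within each genotype. No mice without DSS are among these samples, so every value here belongs to DSS-treated colon. The design asks how STAP-2-/- colon differs from WT colon; the arrays numbered 2 were also set against those numbered 1, since that difference is the spread within a genotype that the first comparison has to exceed.

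Cytochromes P450 are haem enzymes that insert an oxygen atom into their substrate. Those of the endoplasmic reticulum take electrons from the reductase Por, and those of mitochondria from ferredoxin. Families 1 to 3 mostly oxidise drugs, plant compounds and polyunsaturated fatty acids, family 4 hydroxylates the end of fatty acids and leukotrienes, and the higher families each serve a defined step on cholesterol, bile acids, steroid hormones, retinoic acid or vitamin D. In the gut the enterocyte is their main site, and nuclear receptors such as Nr1i2, which senses foreign compounds, and Hnf4a, which maintains enterocyte and hepatocyte genes, control many of them.

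A value below is log2 of a probe's signal over the 75th percentile of its array, so 0 is the level of that percentile; differences are log2 differences. Where 4 values follow a gene, they are in the order WT 1, WT 2, STAP-2-/- 1, STAP-2-/- 2. Stap2 itself read 2.92, 2.98, -6.63 and -7.72, so both pools labelled STAP-2-/- lay below the background limit. The 75th percentile lay between 2134 and 2348, 68.4% to 70.5% of spots were well above background, no spot was saturated, and 2 arrays per group limit the precision. The arrays lay on 1 slide in the order WT 1, STAP-2-/- 1, WT 2, STAP-2-/- 2, so the number and the position on the slide cannot be told apart. The labels call the pools biological replicates without saying more of the mice. A p-value by genotype sets the difference against the spread between pools of the same genotype. By number, the spread within a number lies between 1 WT and 1 STAP-2-/- array. The p-values by number therefore do not measure a spread between replicates.

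Of the 97 members, 59 were well above background on all 4 arrays, 6 on 1 or 2 arrays and 32 on none. Detection followed the subfamilies. All 8 members of Cyp3a and all 10 of Cyp2d were well above background on all 4 arrays, as were 12 of 13 in Cyp2c, 7 of 10 in Cyp4f and 4 of 6 in Cyp2j, but only 2 of 8 in Cyp4a and none of the 5 in Cyp2b or the 3 in Cyp2a. The Cyp2c member outside that count was Cyp2c50. By role, the count was 31 of 45 for the drug-oxidising genes of family 2, 11 of 22 for the fatty acid hydroxylases of family 4, 4 of 6 for cholesterol and bile acid enzymes, 2 of 6 for steroid hormone synthesis, and 1 of 3 each for retinoic acid breakdown and for vitamin D. A probe under background has no measured level, so these counts do not show that a gene is silent.

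**Figure D1:**
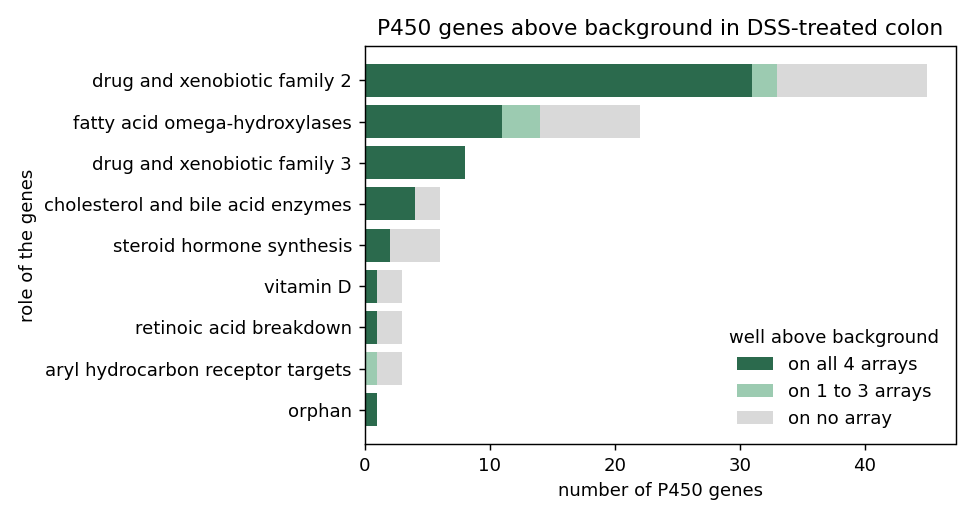
Number of P450 genes (horizontal axis) by role (vertical axis) whose chosen probe was well above background on all 4 arrays, on 1 to 3 arrays or on none, as stacked bars. All 8 genes of family 3 and 31 of 45 drug-oxidising genes of family 2 are in the first class, against 11 of 22 fatty acid hydroxylases and none of the 3 aryl hydrocarbon receptor targets.

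Enzymes that begin or end a hormone pathway were mostly below background. Cyp11a1, which makes pregnenolone from cholesterol, Cyp11b1 and Cyp11b2, which finish corticosterone and aldosterone, and Cyp19a1, the aromatase, were not well above background on any array. The same held for Cyp7a1 and Cyp8b1 of bile acid synthesis, for Cyp26a1 and Cyp26c1 of retinoic acid breakdown, and for Cyp27b1 and Cyp24a1, which activate and inactivate vitamin D. Cyp1a1 and Cyp1a2, classical targets of the aryl hydrocarbon receptor, were also below background throughout. Cyp1b1, another target of that receptor, was well above background on WT 2 and STAP-2-/- 2 only, at -5.08 and -5.59, and read -6.53 and -7.05 on the arrays numbered 1; the arrays numbered 2 were at least 2.64-fold higher, a bound that takes, on each of the other arrays, the higher of the gene's own value and the dimmest signal well above background. It was not among the genes tested.

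No member differed by genotype at an adjusted p under 0.05. Of 15570 genes tested, limma called 0.0% by genotype after Benjamini-Hochberg adjustment, and 2.08% had an unadjusted p under 0.05; all 59 members detected on every array were among those tested and 2 of them had such a p. The genotype groups did not overlap for 10 members, 16.9% of 59, beside 24.8% of all genes tested. All 10 were higher in STAP-2-/- colon, where 11.5% of all genes were higher and 13.3% lower without overlap. Across the 59, 37 were higher and 22 lower in STAP-2-/- colon, with a median difference of 0.04 against -0.01 for all genes and a range from -0.91 to 1.40. Leaving out an array can only add to the count without overlap, since 1 array against 2 overlaps less readily. That count was 24 without WT 1, 16 without WT 2, 47 without STAP-2-/- 1 (23 higher and 24 lower) and 51 without STAP-2-/- 2. Over all genes those shares were 53.8%, 47.8%, 71.7% and 76.3%. In RNA of a whole colon, fewer cells of a type and less RNA per cell cannot be told apart. An exact permutation test of 2 arrays against 2 cannot give a p below 0.333.

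Cyp2w1, an enzyme known from fetal gut and colon tumours, had the largest difference by genotype among them. It read -5.82, -6.21, -5.25 and -3.98, a mean of -6.02 ± 0.27 in WT and -4.61 ± 0.90 in STAP-2-/- colon (SD, n = 2). Both STAP-2-/- arrays lay above both WT arrays, with STAP-2-/- 2 well above the rest. The difference was 1.40 (SE 0.49), or 2.65-fold, with an unadjusted limma p of 0.0476 and an adjusted p of 1.0. It was 0.58 between the arrays numbered 1 and 2.23 between those numbered 2. No other member was 2-fold apart without overlap, a pattern that 0.79% of all genes showed, and 0.328% with STAP-2-/- higher. With normexp background correction 0 members showed that pattern, Cyp2w1 included, beside 0.27% of all genes.

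Cyp2d40, of the drug-oxidising Cyp2d subfamily, read -4.38, -4.85, -3.36 and -3.90. Its arrays numbered 2 differed from those numbered 1 by -0.47 within WT and -0.55 within STAP-2-/-. The difference by genotype of 0.99 (SE 0.29; limma adjusted p = 1.0, unadjusted 0.0271) was similar within number 1, at 1.03, and number 2, at 0.95. Cyp2d26, the other Cyp2d gene without overlap by genotype, differed by 0.54 within number 1 and 0.05 within number 2.

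The Cyp3a subfamily, whose members oxidise steroids and many drugs and are induced through Nr1i2, had 6 of 8 members higher in STAP-2-/- colon, with a median difference of 0.26. The count was 5 with normexp background correction, and without STAP-2-/- 2 it was 5 with a median of 0.04. Cyp3a13, the Cyp3a gene best known from the intestine, read 2.16, 1.84, 2.40 and 2.51. Its STAP-2-/- arrays were nearly level with each other and above both WT arrays, by 0.46 (SE 0.17; limma adjusted p = 1.0), and its second probe gave 0.51. Cyp3a11, the chief Cyp3a enzyme of mouse liver, read -2.48, -2.40, -2.29 and -1.60, and Cyp3a16 read -3.30, -3.22, -3.17 and -2.54. In both, STAP-2-/- 2 stood above 3 arrays that lay close together, so the differences of 0.50 and 0.41 came mostly from that array: within number 1 they were 0.20 and 0.13. Cyp3a genes are close paralogues and their probes may share targets, which was not tested because the files hold no probe sequences.

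All 7 Cyp4f genes tested were higher in STAP-2-/- colon, with a median difference of 0.40 and none past the adjusted threshold. It was 6 of 7 with the 75th percentile over detected probes, the authors' value table or normexp, and 6 of 7 without WT 2, STAP-2-/- 1 or STAP-2-/- 2. The median was 0.15 without STAP-2-/- 1 and 0.24 without WT 2. Cyp4f16 read -1.05, -1.14, -0.02 and -0.94, where STAP-2-/- 1 alone was set apart: the difference of 0.62 (SE 0.35; limma adjusted p = 1.0) was 1.03 within number 1 and 0.20 within number 2. Cyp4f18, a leukotriene B4 hydroxylase of neutrophils, read -1.34, -1.09, -0.92 and -0.87, a difference of 0.32 whose groups did not overlap. Cyp4f14, another leukotriene B4 hydroxylase, read 3.30, 3.17, 2.92 and 3.56 with a difference of 0.01, and its genotype groups overlapped. Of the 7, 6 lie on chromosome 17, as does Stap2 in the RefSeq table, and Cyp4f18 lies on chromosome 8. Whether DNA around Stap2 differs between the 2 kinds of mice was not tested.

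The remaining members without overlap by genotype were Cyp3a41b, Cyp2d26 and Cyp4v3, with differences between 0.22 and 0.31. In 5 further genes, Cyp4a12a, Cyp4a12b, Cyp2b10, Cyp4f39 and Cyp2a12, the probe was well above background on STAP-2-/- 1 alone. No fold or bound is given for these genes by genotype or by number, since 1 array of the higher group was itself below background. Cyp4a12a, a male-typical fatty acid hydroxylase of liver and kidney, read -8.49, -7.68, -3.80 and -8.99, where all but STAP-2-/- 1 lay below background. The order of readings below background, here and in Cyp4a12b and Cyp2a12, is no measured difference.

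**Figure D2:**
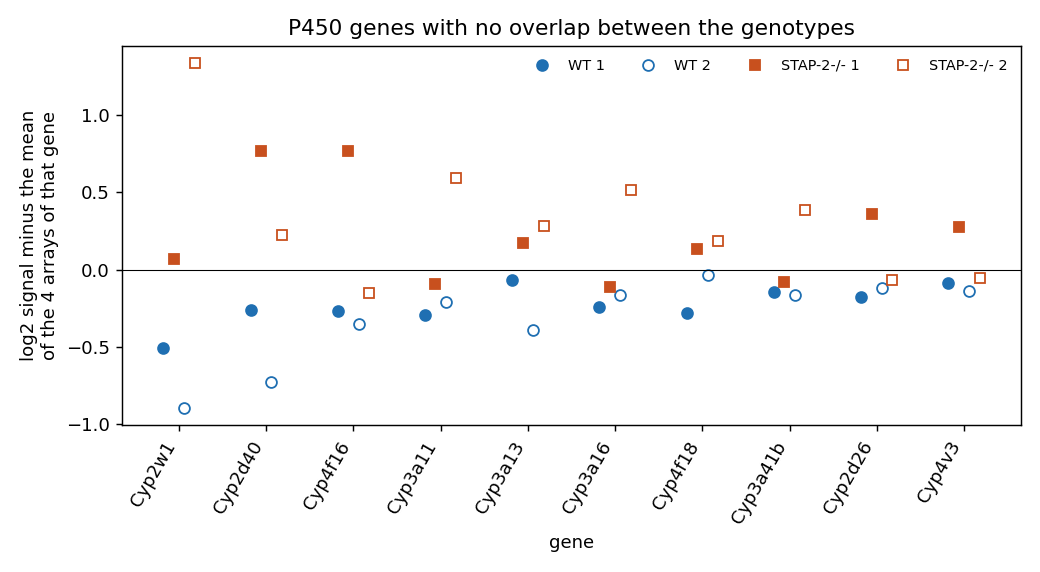
Log2 signal on each array minus the mean of the 4 arrays of that gene (vertical axis) for the 10 members without overlap by genotype; circles are WT and squares STAP-2-/-, filled for arrays numbered 1 and open for those numbered 2. The 2 STAP-2-/- arrays lie above both WT arrays in each gene, but in Cyp2w1, Cyp3a11 and Cyp4f16 1 of them carries most of the difference.

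The direction by genotype held in both array numbers for 24 of the 59 members, 40.7%, against 56.0% of all genes tested. In the other 35 it was opposite in the 2 pairs. The median of Cyp2d was 0.75 within number 1 and -0.55 within number 2, and that of Cyp2c was 0.27 and -0.39.

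Differences between the arrays numbered 2 and those numbered 1 were larger than by genotype. Again limma called 0.0% of genes after adjustment, but 25.4% had an unadjusted p under 0.05, and 31 of the 59 members did. The lowest adjusted p of any gene was 0.0875, which 2 members shared, Cyp2e1 and Cyp2d37-ps. The numbers did not overlap for 45 members, 76.3%, beside 62.4% of all genes: 15 were higher and 30 lower on the arrays numbered 2, where 26.4% and 36.0% of all genes were. At least 2-fold apart without overlap were 19 members, 32.2%, beside 4.55% of all genes, 3 of them higher and 16 lower; leaving out 1 array in turn gave 15 to 23. The median size of a difference was 0.65 in the members and 0.22 in all genes, against 0.27 and 0.12 by genotype. The 2 comparisons use the same 4 arrays, divided in 2 ways.

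**Figure D3:**
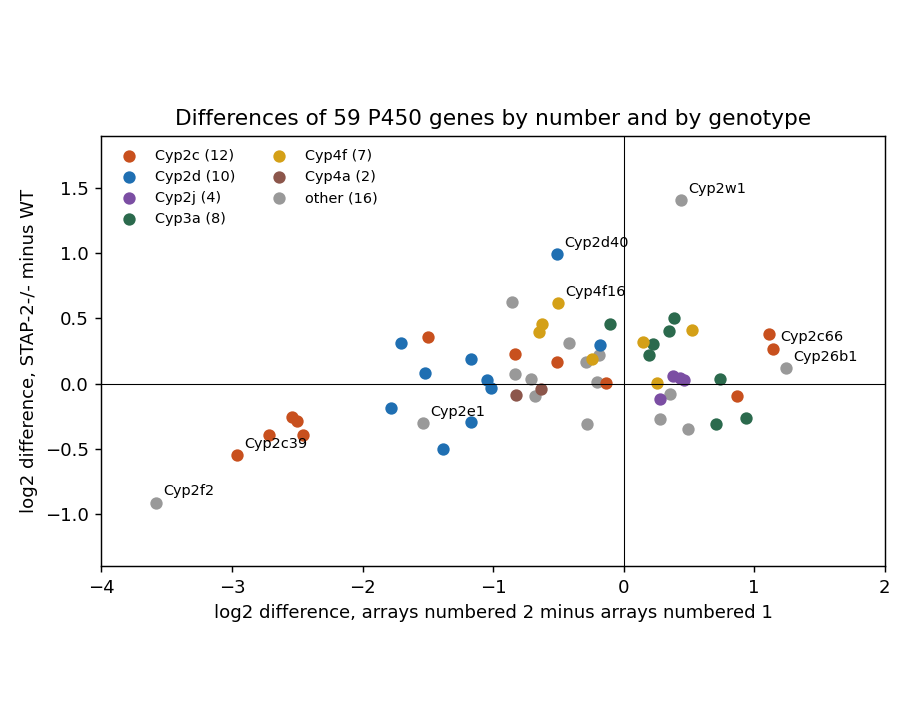
Each of the 59 members by its log2 difference between arrays numbered 2 and numbered 1 (horizontal axis) and between STAP-2-/- and WT (vertical axis), coloured by subfamily. The points spread from -3.58 to 1.24 along the horizontal axis and from -0.91 to 1.40 along the vertical one, with Cyp2f2 and 5 Cyp2c genes farthest left.

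The Cyp2c subfamily, which turns arachidonic acid into epoxides and hydroxy acids besides oxidising drugs, was divided. In the order of genes in the RefSeq table, 14 Cyp2c genes follow each other on chromosome 19 from Cyp2c55 to Cyp2c70, 12 of them on the array. The first 3, Cyp2c55, Cyp2c65 and Cyp2c66, were higher on the arrays numbered 2, and the 8 others detected were lower. Cyp2c23, which lies elsewhere on that chromosome, was lower too. None of the 12 Cyp2c genes tested overlapped between numbers, where 62.4% of all genes did not. With quantile normalization Cyp2c38 joined the higher genes, which made 4.

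The promoter sequences of these genes were read to show what the divided neighbours share. RefSeq promoters of assembly GRCm38.p6, 250 bases before to 50 after the start, were given for 11 of the 13 Cyp2c members. The 7 letters CAAAGTC, the core of a site type that Hnf4a binds, were searched on both strands, a motif chosen after the sequences were read. Of 32851 promoters of this length 4.44% held it. Counted by gene instead, 8 of the 11 Cyp2c members and 10 of 60 other members with a promoter held it. Since the motif was chosen from the Cyp2c sequences, their count was shaped by that choice and is no test of enrichment. Each line gives 31 bases on the gene's own strand with the motif in capitals, first for 2 genes higher on the arrays numbered 2 and then for 6 that were lower.
Cyp2c65, chr19:39060878-39060908, plus strand: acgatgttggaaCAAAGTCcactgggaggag
Cyp2c66, chr19:39113782-39113812, plus strand: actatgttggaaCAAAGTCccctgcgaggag
Cyp2c29, chr19:39286964-39286994, plus strand: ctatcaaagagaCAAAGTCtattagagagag
Cyp2c39, chr19:39347220-39347250, plus strand: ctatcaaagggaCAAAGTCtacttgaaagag
Cyp2c67, chr19:39649149-39649179, minus strand: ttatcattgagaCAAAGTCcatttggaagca
Cyp2c68, chr19:39741160-39741190, minus strand: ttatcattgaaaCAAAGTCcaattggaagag
Cyp2c37, chr19:39992296-39992326, plus strand: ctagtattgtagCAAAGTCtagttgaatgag
Cyp2c70, chr19:40187332-40187362, minus strand: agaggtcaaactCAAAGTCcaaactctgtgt
The motif as printed stood 64 to 125 bases before the start, in genes of both directions, and Cyp2c37 held it a second time, 184 bases before. Between genes next to each other among these 11, identical bases ran from 43.3% for Cyp2c50 and Cyp2c70 to 86.6% for Cyp2c37 and Cyp2c50, with 77.8% for Cyp2c65 and Cyp2c66. These shares come from end-to-end alignments with gaps. The share that unrelated promoters would reach was not measured, so the lower values do not show common sequence. Cyp2c55, Cyp2c38 and Cyp2c50 had no match in this window. A match is a run of letters and says nothing of binding in these colons.

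Cyp2c55, which is known for its high level in mouse colon, read 5.96, 6.41, 5.45 and 6.73. Cyp2c65 read 2.67, 3.27, 2.54 and 4.16, and Cyp2c66, its neighbour, 3.27, 3.94, 3.07 and 4.68. In all 3 genes both arrays numbered 2 lay above both numbered 1, and STAP-2-/- 2 was highest. The differences were 0.87 (SE 0.23), 1.11 (SE 0.32) and 1.14 (SE 0.28), with limma adjusted p of 0.141, 0.150 and 0.134. Without STAP-2-/- 2 that of Cyp2c65 was 0.67.

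The lower group began with Cyp2c29, an epoxygenase, at 2.19, 1.41, 2.47 and 1.59. Cyp2c39 read -2.23, -4.30, -1.88 and -5.74. Its means were -2.06 ± 0.25 on the arrays numbered 1 and -5.02 ± 1.02 on those numbered 2 (SD, n = 2), a difference of -2.96 (SE 0.51; limma adjusted p = 0.105), or 7.80-fold. Cyp2c67 read 3.36, 1.53, 3.85 and 0.25, and Cyp2c68 2.35, 0.44, 2.50 and -0.50. In each the arrays numbered 1 were close together and STAP-2-/- 2 was lowest; the folds were 6.58 and 5.48 (limma adjusted p = 0.105 and 0.0895). Cyp2c54 read -0.84, -2.61, -0.33 and -3.63 and Cyp2c37 -1.81, -3.46, -1.24 and -4.59, with differences of -2.54 and -2.50, though a second Cyp2c37 probe gave -0.34. These genes are close copies and their probes may share targets, so they may not be separate measurements.

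Smaller differences closed the row of genes. Cyp2c38, between Cyp2c39 and Cyp2c67, differed by -0.13 (-4.24, -4.50, -4.36 and -4.37), and by only -0.006 within STAP-2-/-. Cyp2c70, which makes muricholic acids in mice, read -3.39, -3.80, -3.13 and -3.74, a difference of -0.51 (SE 0.13; limma adjusted p = 0.141). Cyp2c23, apart from the others, read -4.47, -4.77, -2.91 and -5.61, so that STAP-2-/- 1 stood alone above the rest; its difference of -1.50 was -0.72 when that array was left out.

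**Figure D4:**
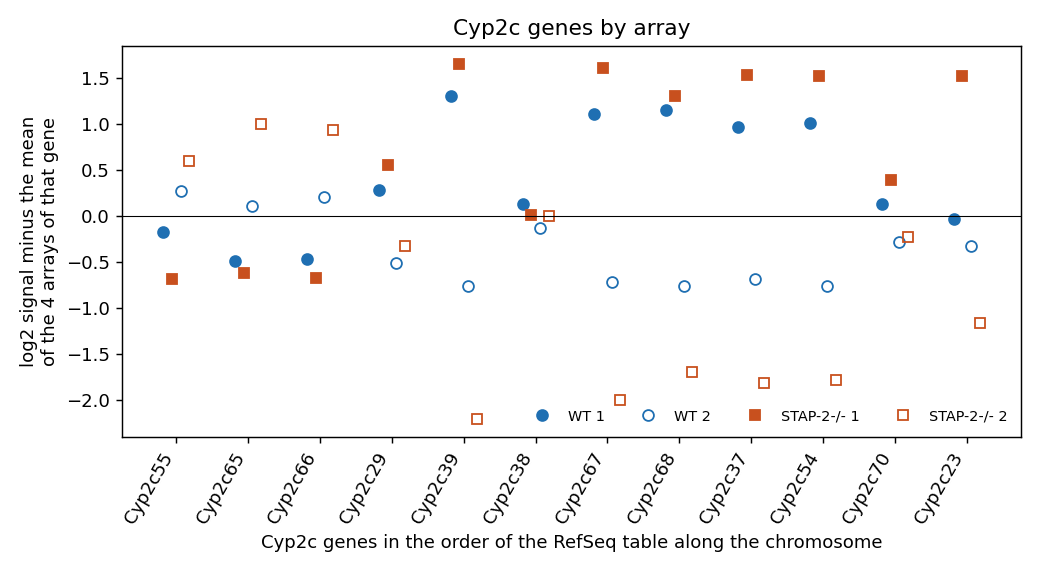
Log2 signal on each array minus the mean of the 4 arrays of that gene (vertical axis) for 12 Cyp2c genes in their order along chromosome 19; circles are WT and squares STAP-2-/-, filled for arrays numbered 1 and open for those numbered 2. In the first 3 genes the arrays numbered 2 are on top, and from Cyp2c29 on the arrays numbered 1 are, by 7.80-fold in Cyp2c39 but only 1.1-fold in Cyp2c38.

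All 10 Cyp2d genes, relatives of the human drug-oxidising CYP2D6, were lower on the arrays numbered 2, with a median of -1.17. Of these, 8 did not overlap, 80%, beside 62.4% of all genes in both directions and 36.0% lower. Without STAP-2-/- 1 the count of lower genes was 8 of 10. Cyp2d9 read 0.91, 0.11, 1.70 and -1.06, and Cyp2d12 1.82, 1.11, 2.71 and 0.39. The order of the arrays was STAP-2-/- 1, WT 1, WT 2, STAP-2-/- 2 from high to low in both. It was the same in Cyp2d10 (3.23, 3.00, 3.88 and 1.35), Cyp2d11 (3.55, 3.18, 4.26 and 2.54), Cyp2d13 (-3.39, -4.34, -2.33 and -4.79), Cyp2d22 (-1.41, -1.98, -0.62 and -2.40) and Cyp2d34 (4.94, 4.50, 5.37 and 3.48). Their differences ran from -1.04 to -1.78, with limma adjusted p from 0.133 to 0.240. Leaving out 1 array brought Cyp2d10 as low in size as -0.56, Cyp2d34 to -0.65 and Cyp2d11 to -0.69. Cyp2d37-ps, a pseudogene, was tighter, at -0.09, -1.06, -0.08 and -1.14, a difference of -1.01 (SE 0.10; limma adjusted p = 0.0875). The 2 members with overlap were Cyp2d26, at 2.74, 2.80, 3.28 and 2.85, and Cyp2d40. As in Cyp2c, probes of these copies may share targets, which was not tested.

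Outside these subfamilies, Cyp2f2, the naphthalene-oxidising enzyme of airway club cells, had the largest difference of any member. It read 0.83, -0.78, 1.89 and -3.66, a difference of -3.58 (SE 1.04; limma adjusted p = 0.153), or 11.96-fold. The difference was -1.61 within WT and -5.55 within STAP-2-/-, and it was -2.14 over both genotypes when STAP-2-/- 2 was left out. Cyp2e1, which oxidises ethanol and small solvents, was steadier: it read 2.48, 1.0, 2.24 and 0.64, with -1.48 within WT and -1.60 within STAP-2-/-. Its difference was -1.54 (SE 0.18; limma adjusted p = 0.0875), or 2.91-fold, and its second probe gave -1.44.

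**Figure D5:**
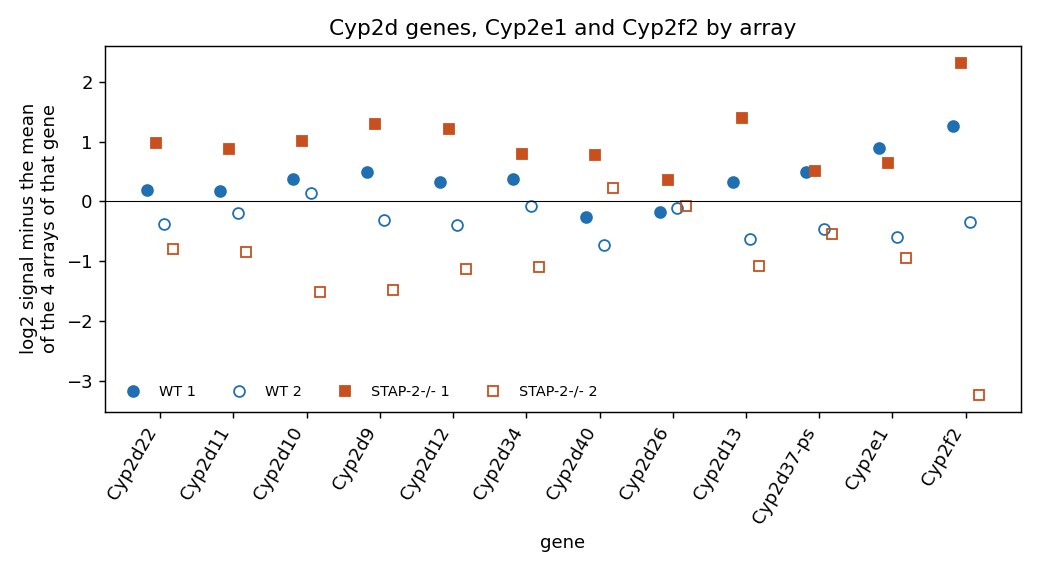
Log2 signal on each array minus the mean of the 4 arrays of that gene (vertical axis) for the 10 Cyp2d genes, Cyp2e1 and Cyp2f2; circles are WT and squares STAP-2-/-, filled for arrays numbered 1 and open for those numbered 2. In 8 Cyp2d genes STAP-2-/- 1 is highest and STAP-2-/- 2 lowest, while Cyp2d40 has both STAP-2-/- arrays above WT.

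A smaller set was higher on the arrays numbered 2. Cyp26b1, which breaks down retinoic acid, read -2.29, -1.29, -2.42 and -0.93, a difference of 1.24 (SE 0.16; limma adjusted p = 0.0888). The Cyp2j epoxygenases were higher in 4 of 4 genes tested, by 0.28 to 0.46, all without overlap, beside 62.4% of all genes in both directions and 26.4% higher. By the mean of each gene's probes it was 3 of 4, as a second Cyp2j13 probe gave -0.69. Cyp2j6 (0.25, 0.47, 0.04 and 0.74) and Cyp2j8 (0.25, 0.42, 0.11 and 0.68) read nearly alike. Probes of these copies too may share targets, which was not tested. Of the Cyp3a genes 7 of 8 were higher, 3 without overlap: Cyp3a57 by 0.94, Cyp3a59 by 0.74 and Cyp3a25 by 0.70. Those 3 are 37.5%, beside 62.4% of all genes in both directions and 26.4% higher. Without STAP-2-/- 2, 4 of 8 Cyp3a genes were higher. Cyp3a59 read -3.54, -2.79, -3.49 and -2.77, with each number nearly the same in both genotypes (limma adjusted p = 0.0895).

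The enzymes of sterol and vitamin D pathways had no 2-fold difference. Cyp27a1, the mitochondrial sterol hydroxylase, read -3.67, -4.33, -2.84 and -3.91, a difference of -0.86 by number. Cyp46a1, which hydroxylates cholesterol, read -4.15, -4.81, -3.90 and -4.90, and Cyp2r1, which begins vitamin D activation, -0.67, -1.26, -0.51 and -1.34. Both had the arrays numbered 1 above those numbered 2 (-0.83 and -0.71, limma adjusted p = 0.101 for each), but a second Cyp2r1 probe, also above background on every array, gave -0.05. Cyp7b1, an oxysterol hydroxylase, went the other way at -2.90, -2.15, -2.99 and -2.75, by 0.49, and Cyp39a1, which acts on oxysterols too, overlapped at 0.89, 1.03, 1.0 and 0.30. Cyp17a1 and Cyp21a1 of steroid synthesis were the detected members of that group, at 0.41, 0.05, 0.64 and -0.36, and at -4.06, -4.15, -3.94 and -4.26; both were lower on the arrays numbered 2, with differences of -0.68 and -0.20.

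The difference by number had the same sign in both genotypes for 51 of 59 members, 86.4%, beside 77.3% of all genes. It was larger within STAP-2-/- for 49, 83.1%, beside 69.1% of all genes, with a median size of 0.77 there and 0.44 within WT. For Cyp2c the medians were -1.79 within STAP-2-/- and -0.60 within WT, and for Cyp2d -1.83 and -0.52. With 1 array of each number per genotype, this difference between genotypes was not tested.

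Partners and regulators of the family differed less than its members. Of 40 genes listed, 38 were tested and none passed the adjusted threshold in either comparison; 22, 57.9%, did not overlap between numbers and 10, 26.3%, between genotypes, near the shares of all genes. Por, the electron donor, differed by -0.01 between genotypes and 0.07 between numbers. Nr1i2 was 0.24 higher in STAP-2-/- colon and 0.27 lower on the arrays numbered 2, Nr1i3, the sister receptor of foreign compounds, differed by -0.42 and -0.45, and Hnf4a by 0.00 and -0.32. Rbp2, the retinol carrier of enterocytes, was the only one 2-fold apart by number, at -1.02. Nr0b2 and Hsd3b1 were not well above background.

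Markers of several tissues differed between the numbers beside these genes. Markers of the labelled tissue were present: 11 of 12 colon epithelium markers were found and all 11 were detected, 4 higher and 7 lower on the arrays numbered 2, with a summed signal of 484, 420, 511 and 438 relative to the 75th percentile. Aqp8, Slc26a3 and Car4 of surface enterocytes differed by -1.42, -1.12 and -1.07, and Car1, Cdx2 and Epcam by 0.52, 0.72 and 0.50. All 8 adipocyte markers were lower on the arrays numbered 2 (sums 97.3, 63.5, 60.4 and 41.4). Of 5 neutrophil markers tested 4 were higher there, among them S100a9 by 3.76, S100a8 by 2.67 and Retnlg by 1.56. Csf3r, the brightest probe of that list at 5.44 to 5.86, was 0.30 lower and sets its sums of 58.5, 52.8, 57.1 and 44.3.

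Hepatocyte markers were divided. Fgb and Hpx were below background on every array. Alb, Ttr and Apoa2 differed by -1.93, -2.23 and -0.83 between numbers, and Serpina1a, Ahsg and Apoh by -0.05, 0.02 and 0.14. Alb was below background on STAP-2-/- 2 (-6.67), so its difference rests in part on a reading that is no measured level. The sums over all 8 were 3.09, 1.76, 4.59 and 1.39. Among 6 pancreas acinus markers, Cela1 differed by -2.32 and sets the sums of 9.05, 3.21, 14.9 and 1.84. Amy2a5 and Ctrb1 differed by -0.69 and -0.31, whereas Cpa1 and Pnlip were well above background on STAP-2-/- 2 alone. Adrenal markers had sums between 0.813 and 1.08, with Hsd3b1 and Cyp11b1 below background.

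Markers also differed by genotype beside the P450 genes that were higher in STAP-2-/- colon. Of 6 T and NK cell markers 5 were higher there, with a median of 0.68 and sums of 3.18, 2.52, 3.14 and 4.72. Lower there were 7 of 7 markers of enteric neurons and glia (sums 2.99, 3.26, 2.31 and 2.72), and 6 of 6 each of fibroblasts and smooth muscle. Without overlap were 5 of the 7, 3 of the 6 for fibroblasts and 3 of the 6 for smooth muscle, beside 13.3% of all genes lower without overlap. The fibroblast sums were 73.9, 87.9, 69.3 and 60.8 and those of smooth muscle 290.0 and 279.7 in WT, both above the STAP-2-/- sums, the lower of which was 236.8. Adipocyte markers were lower in 7 of 8, 3 of them without overlap. The part of any of these cells in the P450 differences was not tested.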

How the data were processed

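Expression was measured on 4 one-colour Agilent arrays. Per the file headers, the deposited scanner files give each spot's processed signal intensity, background-subtracted but not normalized between arrays, with median signal and background intensities and other flags per spot (well above background, outlier); they were made with Agilent Feature Extraction 10.7.1.1, per the submitters' processing notes. The authors' deposited value table, a ratio of the signal to 1 constant per array, served as an alternative.

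Here each value is log2 of the processed signal minus that of the array's 75th percentile over non-control spots; outlier spots were left out and spots of a probe averaged. Of 39429 probes, 27427 were named through a RefSeq table of GRCm38.p6, used for names and gene order only. Each gene kept its probe with the highest mean. The 15570 genes with a probe scored well above background in both WT or both STAP-2-/- pools were fitted with limma 3.58.1 (lmFit, eBayes; R 4.3.3), once by genotype and once by array number, with Benjamini-Hochberg adjustment at 0.05. The script was tested on simulated data. Members named with values were those without overlap at least 1.3-fold apart by genotype or 2-fold by number, all of the sterol, hormone, retinoic acid, vitamin D and aryl hydrocarbon receptor groups, and the largest genotype difference of each subfamily of 3 or more; the others named were chosen after their values were seen. The members and all lists were chosen with earlier results of these data known. Alternatives were other scaling, background correction, filters, probe rules and fits, the replicate block and leaving out each array.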

Additional observations from a re-analysis of the deposited data

Results flagged for a closer look

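Cyp2w1 was singled out because its difference between arrays numbered 2 and numbered 1 ran in opposite directions in the 2 genotypes: -0.39 within WT and 1.27 within STAP-2-/-. Each is a difference between 2 arrays, and the difference between the genotypes was not tested. Cyp2w1 was not alone in this, since the sign was the same in both genotypes for 51 of 59 members, 86.4%, beside 77.3% of all genes. Opposite directions were also seen in Cyp39a1 (0.14 within WT and -0.70 within STAP-2-/-) and Cyp4f14 (-0.13 and 0.64), among others.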

How the results depend on the processing

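With 2 arrays a group, limma called no gene in either comparison, beside 324 by genotype and 3950 by number at an unadjusted p under 0.05. Normexp background correction called 1 gene by genotype, Stap2. By number, requiring signal on both arrays of 1 number, an alternative chosen after seeing the data, called 4 genes (Olfr615, Gucy2f, 1700013G24Rik and Spp1), and leaving out each array called 0 to 1, the 1 being Six2 without WT 1. No member was among these genes, which were named after their values were seen. Members without overlap by genotype, 10 here, numbered 16 to 51 when an array was left out. Over all genes the shares without overlap were then 47.8% to 76.3%. Members without overlap by number, 45 here, were 72 of 97 with no filter on dim probes, 74.2% beside 64.3% of all genes. That setting adds probes below background, which have no measured level. The dimmest signal well above background was -7.72 on WT 1 and -6.96 on STAP-2-/- 1, but -8.20 on WT 2 and -8.47 on STAP-2-/- 2. The 72 are therefore no check on the 45. No difference of a member named for a genotype or number gap reversed, in 66 genotype and 228 number values from other settings. Several of those settings only change the filter or the fit, which keeps the sign. None reversed in 24 and 76 values without 1 array, but groups without overlap cannot reverse when an array is left out. Those 24 and 76 values are therefore no test. For 32 members under background on every array no level is given, and for the 6 above it on some arrays at most a bound.

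With the replicate block, genotype and number in 1 fit, 0 genes were called in either comparison and 1042 had an unadjusted p under 0.05 by genotype. The deviations of same-numbered arrays had r = 0.63 over 15161 genes, but the labels give only a shared number, which is not known to pair the pools. The cause of these changes was not tested.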
